A study of Mus musculus with 12 samples.

Results

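Translation factors are the proteins that start and extend protein chains on the ribosome. The genes described here are the rows of the deposited table named as eukaryotic initiation factors 1 to 6 or elongation factors 1 and 2. The pattern matched 66 gene names, of which 3 pseudogenes, the X- and Y-linked genes of eIF2 gamma (2 genes) and 3 names starting Eif1a were left out. This left 58 of the 11911 genes in the table. The libraries are bulk RNA-seq of neutrophils that were sorted from mouse left ventricles as CD45.2+, Ly6G+, CD64- and RFP+, with 800 cells per library. There were 6 libraries with the genotype label control (numbered 2, 6, 7, 8, 11 and 12) and 6 with the genotype label LOY (3, 4, 5, 10, 14 and 15), where LOY stands for loss of the Y chromosome in the series title. All 12 came from recipients of a bone marrow transplant whose title and treatment label both read control. The alleles or agents used to remove the Y chromosome, the strain, the sex of the donors and the ages of the mice are not given in the labels. The labels also do not say that the libraries of a group came from separate mice, so the p-values measure only the spread between these libraries.

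Initiation begins when eIF2, loaded with GTP and the initiator tRNA, joins the small ribosomal subunit together with eIF1, eIF3 and eIF5, while eIF4F (the cap-binding protein eIF4E, the scaffold eIF4G and the helicase eIF4A) brings in the messenger RNA. Stress kinases slow this step by phosphorylating eIF2, which blocks its exchange factor eIF2B, and the eIF4E-binding proteins hold eIF4E away from eIF4G until the kinase mTOR phosphorylates them. During elongation, eEF1A delivers aminoacyl-tRNA, the other eEF1 subunits recharge eEF1A with GTP, and eEF2 moves the ribosome along. Neutrophils are short-lived cells that carry many of their proteins preformed in granules and have a low RNA content.

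Values are normalised reads, that is, the reads of a gene after division by a scaling factor of the library. The listed genes held between 6767108 and 12561174 reads per library. Of the 12 neutrophil marker genes, 11 (among them S100a8 and S100a9) were above 10 normalised reads in every library, while Ly6g, the gene of the sorted surface protein, was under 10 in 4 libraries. The 12 together held 219624 to 627241 normalised reads in controls against 199204 to 407481 in LOY libraries. Of them, 3 had a positive log2 fold change, LOY over control. Ddx3y, a Y-linked RNA helicase used to check the labels, had 399.7 to 1341 normalised reads in controls. It was at 0 in 4 LOY libraries, with a highest LOY value of 51.6 in LOY 10. The 15 heart muscle marker genes together held 4239 to 9168 normalised reads in controls against 6300 to 71722 in LOY libraries (LOY 10 being the highest), and 14 of the 15 had a positive log2 fold change. The 8 fibroblast markers together ran from 139 to 1537 against 386 to 9377, and the 10 endothelial markers from 1062 to 4097 against 2596 to 6477. Macrophage markers (7272 to 9899.5 against 4072 to 13709.6), B cell markers (3263 to 12314 against 2996 to 8757) and red cell and platelet markers (13.6 to 9722 against 165 to 6986) also overlapped between the groups. Fold changes were positive for 5 of 5 tested fibroblast markers and 7 of 9 endothelial ones. They were positive for 2 of 8 tested macrophage, 1 of 7 B cell and 1 of 5 red cell and platelet markers. None of these markers passed the test, and their part in the values below was not tested. A low value in a bulk sample cannot tell fewer cells that express a gene from less RNA per cell.

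Most translation factors were read, but only part of them steadily. In each library, between 46 and 57 of the 58 genes had at least 1 read and between 38 and 51 reached 10 normalised reads. In all 12 libraries, 34 of the 58 (58.6%) had reads, against 34.6% of all listed genes, and 22 (37.9%) reached 10 normalised reads, against 20.6% of listed genes. The 10 genes with a mean of 1000 or more normalised reads had a median SD of 0.65 on the log2(normalised reads + 1) scale within groups. In the 18 genes between 300 and 1000 this SD was 1.59, and in the 20 genes between 100 and 300 it was 3.37. Genes in the lower range thus moved by several-fold between libraries of 1 genotype, and 9 genes did not reach 10 normalised reads in 6 libraries and were not tested.

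**Figure D1:**
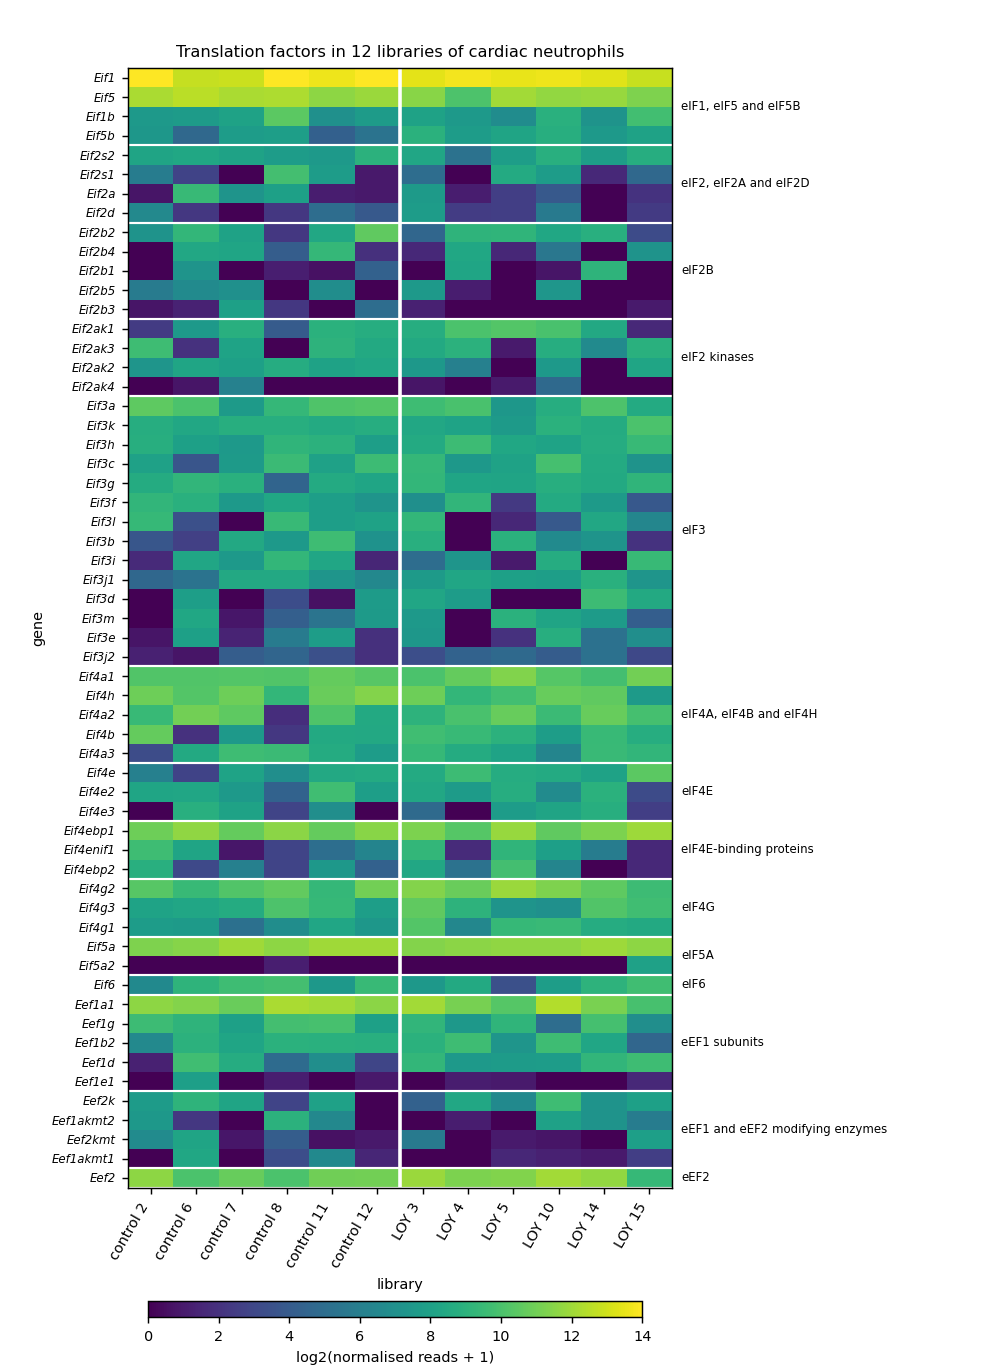
Heat map of log2(normalised reads + 1) for the 58 translation factors (rows, grouped by role with white lines) in 6 control and 6 LOY libraries (columns, split by a white line). The rows of Eif1, Eif5, Eif5a and Eef1a1 are high throughout, whereas most rows of eIF2B, of the eIF2 kinases and of the modifying enzymes mix high values with values at or near 0 in both groups.

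Per length, Eif1 stood above every other member. Eif1 (ENSMUSG00000035530, chr11:100319885-100322096, forward strand; coordinates are on GRCm38), whose small protein keeps the scanning ribosome selective for the right start codon, had 6154 ± 2252 normalised reads per kb of exon in control and 5357 ± 1071 in LOY libraries (SD, n = 6 each). It was the highest member per kb in all 12 libraries, held between 17.1% and 35.9% of the normalised reads of the 58 genes, and ranked between 52 and 171 among all listed genes by normalised reads. Its mean per kb was 4.09 times that of the next member, Eif5a (3.93 times with the longest transcript in place of all exons). The next 3 in order did not differ beyond their spread. Eif5a, whose protein helps the ribosome through difficult peptide bonds and in termination, had 1451 ± 299.7 and 1363 ± 172 normalised reads per kb in control and LOY libraries. Eef1a1, which encodes the tRNA-delivering eEF1A, had 1319 ± 430.3 and 1097 ± 687. Eif4ebp1, which encodes the eIF4E-binding protein 4E-BP1, had 1106 ± 338 and 1163 ± 506. The second place per kb was held by Eif5a in 5 libraries, by Eef1a1 in 4 and by Eif4ebp1 in 3. Eef2 (549.9 ± 235 and 860.1 ± 389) and Eif5 (669 ± 145 and 436 ± 162) followed.

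**Figure D2:**
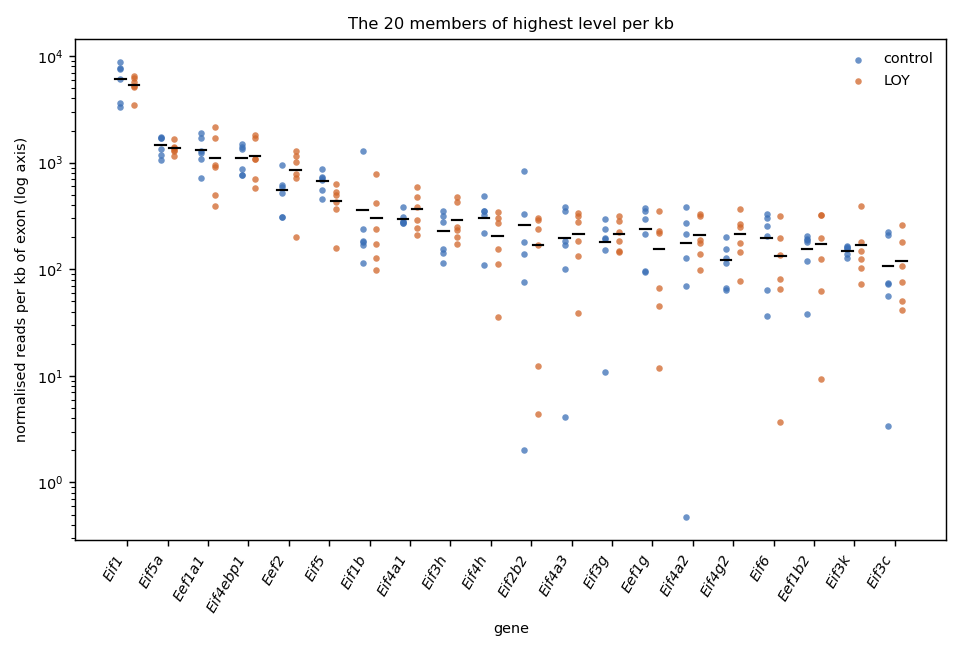
Normalised reads per kb of exon (log axis) for the 20 members with the highest mean level per kb, with 1 point per library (control blue, LOY orange) and a bar at the group mean. Eif1 lies above all other members in every library, and Eif4a2, Eif4a3, Eif3g, Eif6 and Eif3c each have 1 library far below the rest.

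Several pairs of related genes kept their order per kb in every library. Eif1 was above its paralog Eif1b in 12 of 12 libraries, with a ratio of the means of 17.3. The ratio ran from 4.45 to 57.2 over the libraries, with a median of 29.8. Control 8 had 1434 normalised reads of Eif1b, where the control median was 204. Eif4ebp1, the inhibitor, was above Eif4e, its target, in 12 of 12 libraries, with a ratio of the means of 17.1 and a range over the libraries of 4.53 to 1485. Eif4g2, whose protein (DAP5) is an eIF4G relative that lacks the eIF4E-binding part, was above the cap-dependent scaffold gene Eif4g1 in 12 of 12 libraries (ratio of the means 3.26, lowest ratio 1.49). The helicase gene Eif4a1 was above its paralog Eif4a2 in 10 of 12 libraries (ratio of the means 1.72). Eef2 was above Eef2k, the gene of the kinase that inactivates eEF2, in 12 of 12 (ratio of the means 21.1). These are RNA levels and say nothing of the amounts of protein. No source used here tells how reads shared by near-identical copies were assigned. Eif1, Eif4a1 and Eif5a have processed pseudogenes, so their reads could be split with those copies.

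The comparison of LOY with control asked whether neutrophils without the Y chromosome carry other levels of these messages. None of the 49 tested members passed the limma test at an adjusted p of 0.05, where 0.0288% of the 6951 tested genes did, and the members' adjusted p ran from 0.997 to 0.9999 by limma. At an unadjusted limma p under 0.05 there were 3 members, Eif4e and Eif5b with higher and Eif5 with lower levels in LOY, beside 4.37% of all tested genes (2.33% higher and 2.04% lower). Among the 49, 26 had a positive and 23 a negative log2 fold change (50.4% positive over all tested genes), with a median of 0.07 beside 0.01 for all genes. For no member were the values of the groups free of overlap, beside 0.201% of tested genes. DESeq2 and edgeR on the recovered reads also called 0 members, with smallest adjusted p of 0.103 and 0.9998, where they called 3.12% and 0% of genes. At an unadjusted p under 0.05 they had 4 and 1 members, beside 10.1% and 1.84% of the genes they tested. These were Eif2b3, Eef1akmt1, Eif4g1 and Eif4e in DESeq2 and Eif4g1 in edgeR. Of the 3 limma members, only Eif4e was among them. The authors' deposited table gives a p-value for 55 members, of which 0 have an adjusted p under 0.05, where 3.12% of its genes do. For the members, its fold changes and unadjusted p-values match those of DESeq2 here, so it is not a separate check. Fold changes below are differences of the group means of log2(normalised reads + 1), LOY over control, each with its SE and the 95% interval of the limma fit.

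The summed reads of the members were close in the 2 groups. The 58 genes together had 45406 ± 5425 normalised reads in control and 44458 ± 5424 in LOY libraries (SD, n = 6 each), or 5696 ± 885 and 5894 ± 1161 reads when each library is scaled to 1e+06 reads of listed genes. The members were also split by gene name, which puts Eif5a and Eif5a2 on the initiation side. The 48 initiation-side genes (42 tested) had 23 positive and 19 negative fold changes and a median of 0.14. The 10 elongation-side genes (7 tested) had 3 positive and 4 negative ones and a median of -0.33. For 4 of the 49 members, Eif1, Eif4a1, Eif4ebp1 and Eif5a, the 95% interval lay within 1 log2 unit of 0, so that a change of more than 2-fold lies outside it. This is 8.16% of the members beside 5.68% of all tested genes. For the other 45 members the interval reached past 1 log2 unit in at least 1 direction.

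**Figure D3:**
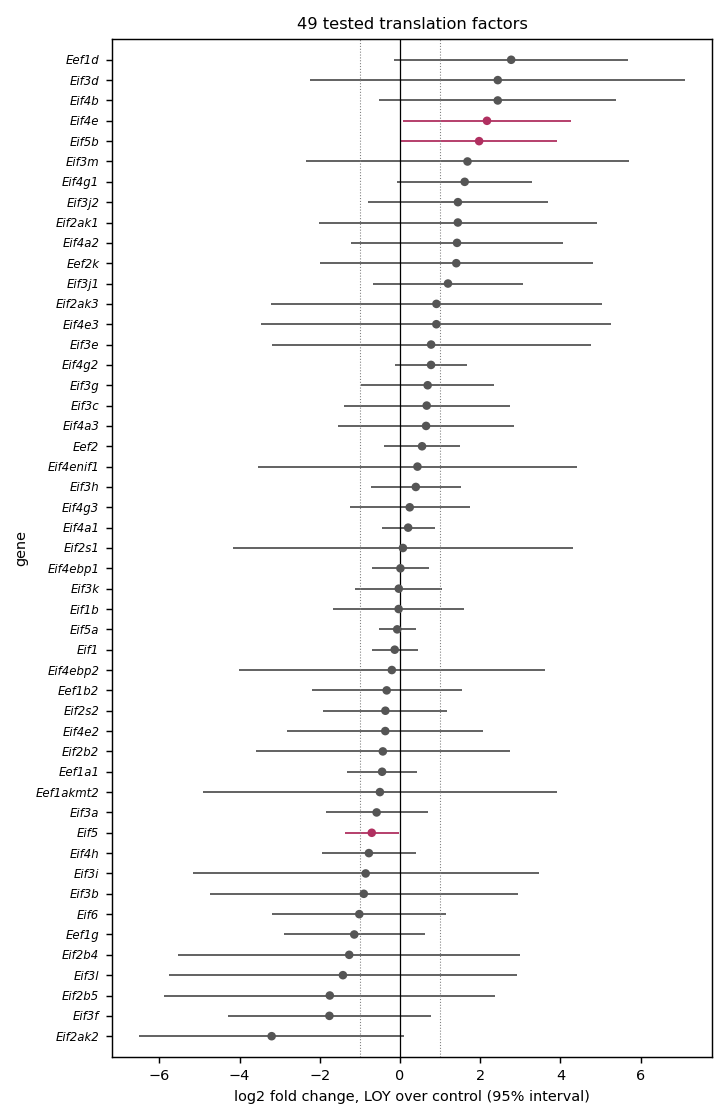
Log2 fold change, LOY over control, of the 49 tested members in order of size (points) with 95% intervals (lines); dotted lines mark 1 log2 unit on either side of 0. The 3 members in red (Eif4e, Eif5b and Eif5) have an unadjusted limma p under 0.05, and the intervals of most others span 0 by several log2 units.

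Among the factors that choose the start codon or join the large ribosomal subunit, Eif5 and Eif5b had fold changes of opposite sign, and neither passed the test. Eif5 (ENSMUSG00000021282, chr12:111538016-111546752, forward strand) encodes the protein that makes eIF2 hydrolyse its GTP once the start codon is found. Its lowest, median and highest values were 3118, 4783 and 5910.4 normalised reads in control and 1085, 3143 and 4291 in LOY libraries. All 6 LOY libraries lay below the control median, with LOY 4 the lowest, but the 3 highest of them lay inside the control range. The log2 fold change was -0.71 (SE 0.32, interval -1.38 to -0.03) with an unadjusted limma p of 0.0425, and -0.44 without LOY 4. Eif5b (ENSMUSG00000026083, chr1:37998010-38055579, forward strand) encodes the GTPase that joins the large ribosomal subunit. It had 18.8, 105 and 232 normalised reads (lowest, median, highest) in control and 179.7, 278 and 494 in LOY libraries. The controls fell into 3 libraries under 40 and 3 above 170 normalised reads, and every LOY library was above the control median, LOY 4 and LOY 14 inside the control range. Its log2 fold change was 1.97 (SE 0.91, interval 0.04 to 3.91; unadjusted limma p 0.0465). Exons of Eif5b overlap those of Rev1 on the other strand by 1643 bases, and without strand in the library these reads cannot be told apart. Eif1, the most abundant member, ran from 6913 to 18376 in control and from 7258 to 13566 in LOY libraries, with the LOY values inside the control range and a log2 fold change of -0.13 (SE 0.27, interval -0.70 to 0.44). Eif1b had -0.04 (SE 0.77).

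**Figure D4:**
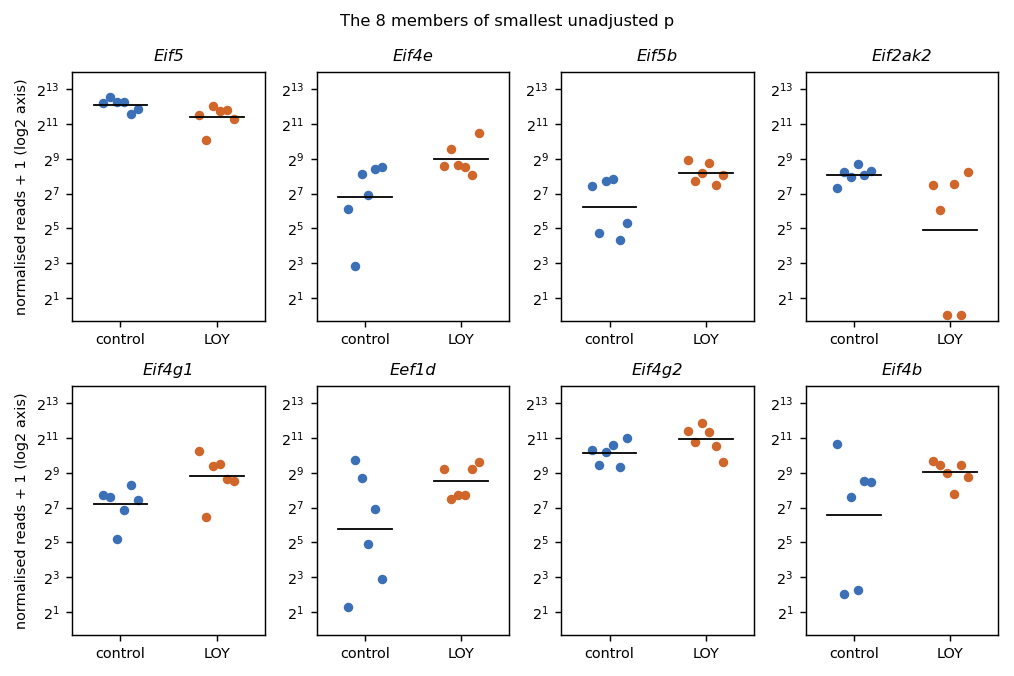
Normalised reads + 1 (log2 axis) of the 8 members with the smallest unadjusted limma p, with 1 point per library (control blue, LOY orange) and a bar at the mean of the log2 values. The groups overlap in all 8 panels, and for Eif4e, Eif5b, Eef1d and Eif4b the low control libraries widen the control group downwards.

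In the families of the cap-binding protein and its scaffold, 2 of the 3 eIF4E genes and all 3 eIF4G genes had positive fold changes. Over all tested genes 50.4% were positive, and none of these members passed the test. Eif4e (ENSMUSG00000028156, chr3:138526179-138559696, forward strand), the gene of the cap-binding protein, had 5.99, 197 and 370.2 normalised reads (lowest, median, highest) in control and 263, 394 and 1422 in LOY libraries. Control 6 was far below the others at 5.99, LOY 15 was the highest at 1422, and all 6 LOY libraries were above the control median. LOY 14 lay inside the control range, and LOY 3, LOY 5 and LOY 10 lay just above the highest control. The log2 fold change was 2.17 (SE 0.97, interval 0.08 to 4.25; unadjusted limma p 0.0428), and 1.36 without control 6. The other eIF4E genes went to either side, Eif4e2 with -0.37 (SE 1.14) and Eif4e3 with 0.90 (SE 2.04). Eif4g1 (ENSMUSG00000045983, chr16:20668313-20692884, forward strand), the main scaffold, had 34.8, 183 and 314 normalised reads in control and 88.4, 529.5 and 1213 in LOY libraries. LOY 4 fell inside the control range and the other 5 LOY libraries lay above the highest control. Its log2 fold change was 1.61 (SE 0.79, interval -0.07 to 3.30; unadjusted limma p 0.0594). Eif4g2 (ENSMUSG00000005610, chr7:111067750-111083030) had 652, 1223 and 2043 normalised reads in control and 782, 2165 and 3754 in LOY libraries, with LOY 15 near the lowest controls and 3 LOY libraries above all controls. Its log2 fold change was 0.77 (SE 0.42, interval -0.12 to 1.66; unadjusted limma p 0.0839). All 3 eIF4G genes had positive fold changes with a median of 0.77, Eif4g3 giving the lowest at 0.24 (SE 0.70). In the authors' deposited table Eif4g1 has a log2 fold change of 1.73 with an adjusted p of 0.169 and Eif4e one of 1.61 with an adjusted p of 0.425.

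The helicase side of eIF4F was steadier for its main gene. Eif4a1, the helicase, had 1169, 1214 and 1655 normalised reads (lowest, median, highest) in control and 906, 1450.0 and 2569 in LOY libraries. The controls lay close together apart from control 11, and the LOY libraries spread to both sides of them. The log2 fold change was 0.20 (SE 0.31, interval -0.46 to 0.87). Eif4b, the gene of a helper of the helicase, had 2.99, 273 and 1638 normalised reads in control and 222, 604 and 828 in LOY libraries. Control 2 was the highest of all 12 and controls 6 and 8 were under 4 normalised reads, so all LOY values lay inside the control range. Its log2 fold change of 2.44 (SE 1.38; unadjusted limma p 0.0984) became 0.40 in DESeq2, which compares mean reads, 1.52 without control 6 and 1.57 without control 8. Eif4ebp1 (ENSMUSG00000031490, chr8:27260329-27276674, forward strand) had 1678, 2446 and 3250.5 normalised reads in control and 1277, 2389 and 3999 in LOY libraries. The LOY range reached past the control range on both sides, and the log2 fold change was 0.01 (SE 0.33, interval -0.71 to 0.72), with a sign that turned under 8 of the alternatives tried. Eif4enif1, whose protein 4E-T carries eIF4E into the nucleus, had 0.43 (SE 1.86), a sign that turned under 5.

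The promoters of several of these genes carry an E-box, a short palindrome bound by basic helix-loop-helix factors such as MYC and USF. It was looked for in the RefSeq promoter windows (GRCm38.p6, 250 bases before to 50 after each start), which were found for 46 of the 58 members. The motif CACGTG, which reads the same on both strands, lay in the windows of 12 of the 46 members (26.1%), beside 12.4% of the tested genes and 8.09% of all genes with a window. Counted by window it was in 14 of the members' 61 windows, beside 7.15% of all windows. The other motifs were searched on both strands. The ETS motif CCGGAAGT lay in 9 members (19.6% beside 10.6% of tested genes and 4.31% of all genes). The motif CCAAT lay in 16 (34.8% beside 42.5% and 41.1%), and TATAAA in 4 (8.70% beside 9.24% and 15.7%). None of the motifs contains another, they were chosen after the windows had been seen, and a match describes the letters only. The E-boxes before a start of the members described in detail, Eif1b and Eif3k apart, are shown with 20 bases on either side, 5′ to 3′ on the gene's strand, the motif in capitals.
Eif4e, 64 bases before the start, chr3:138527184-138527229, forward strand: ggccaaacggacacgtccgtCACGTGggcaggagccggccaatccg
Eif4e, 228 bases before the start, chr3:138527020-138527065, forward strand: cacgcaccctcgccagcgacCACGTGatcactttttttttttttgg
Eif4g1, 54 bases before the start, chr16:20672653-20672698, forward strand: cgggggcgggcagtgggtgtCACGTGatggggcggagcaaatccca
Eif4a1, 189 bases before the start, chr11:69672587-69672632, reverse strand: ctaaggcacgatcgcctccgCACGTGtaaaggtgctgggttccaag
Eif5a, 74 bases before the start, chr11:69921435-69921480, reverse strand: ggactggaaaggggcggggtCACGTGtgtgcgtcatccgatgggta
Eif5a, 178 bases before the start, chr11:69920783-69920828, reverse strand: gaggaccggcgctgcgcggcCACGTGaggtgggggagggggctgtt
Eif3f, 68 bases before the start, chr7:108934327-108934372, forward strand: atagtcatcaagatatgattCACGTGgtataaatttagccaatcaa
Eef2, 43 bases before the start, chr10:81176568-81176613, forward strand: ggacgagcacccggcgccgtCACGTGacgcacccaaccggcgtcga
Eef2k, 31 bases before the start, chr7:120842780-120842825, forward strand: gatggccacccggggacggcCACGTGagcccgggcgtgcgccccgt
The log2 fold changes of these genes were 2.17 for Eif4e, 1.61 for Eif4g1, 0.20 for Eif4a1, -0.07 for Eif5a and -1.76 for Eif3f. Eef2 had 0.55 and Eef2k 1.40. The remaining tested members with an E-box in a window were all negative, Eif4h with -0.78, Eif3a with -0.58, Eif1b with -0.04 and Eif3k with -0.03. Eif5a2 was not tested, and none of the others passed the limma test.

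Apart from Eif2s2 and Eif2b2, the genes of eIF2, eIF2A, eIF2D and of the exchange factor eIF2B were at 0 in at least 1 library each. Eif2s2, the gene of the eIF2 beta subunit, had 188, 277 and 516 normalised reads (lowest, median, highest) in control and 38.4, 265 and 448 in LOY libraries, with LOY 4 the lowest. Its log2 fold change was -0.37 (SE 0.72, interval -1.91 to 1.18). Eif2s1, the gene of the alpha subunit that the stress kinases phosphorylate, was above 0 in 10 libraries, with 0.07 (SE 1.98). Of the 5 eIF2B subunit genes, 3 were tested, all with negative fold changes and a median of -1.27. Eif2b2 had 3.80, 302 and 1559 normalised reads in control and 8.24, 385 and 569.6 in LOY libraries, with control 12 the highest. Its log2 fold change of -0.43 (SE 1.48) turned sign when any of 3 libraries was left out. Eif2b5, the gene of the catalytic subunit, was at 0 in 2 control and 3 LOY libraries and had -1.75 (SE 1.93, interval -5.88 to 2.38), or -2.63 without either of those controls. Eif2b3, which was not tested by limma, has the smallest adjusted p of the members in the authors' deposited table (0.103, log2 fold change -6.76). It had 248 normalised reads in control 7 and 31.5 in control 12, under 4 in the other controls, and 0 in 4 LOY libraries with a highest value of 1.41, so that 2 control libraries hold nearly all of its reads. Eif2b1, which limma did not test either, went the other way in the deposited table (log2 fold change 2.33, adjusted p 0.999). It had 302 normalised reads in LOY 4, 552 in LOY 14 and 149 in control 6.

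The 4 eIF2 kinases, which sense different stresses, had fold changes of both signs, and none passed the test. Eif2ak2 (ENSMUSG00000024079, chr17:78852564-78882573, reverse strand) encodes PKR, the kinase that binds double-stranded RNA. It had 158, 284 and 410.5 normalised reads (lowest, median, highest) in control and 0, 121 and 303 in LOY libraries. Every control library had reads, whereas LOY 5 and LOY 14 were at 0, and LOY 15 at 303 was above the control median. The log2 fold change was -3.20 (SE 1.54, interval -6.50 to 0.10; unadjusted limma p 0.0563), the lowest of the 49 members, and -1.21 by DESeq2. The 4 LOY libraries with reads ran from 66.3 to 303. Eif2ak1, the gene of the heme-regulated kinase HRI, had 4.35, 297 and 484 normalised reads in control and 2.06, 707 and 1210.5 in LOY libraries. LOY 4, LOY 5 and LOY 10 were above all controls, but LOY 15 was the lowest of all 12, and the log2 fold change was 1.44 (SE 1.62). It was 0.58 without control 2, 0.90 without control 8 and 2.75 without LOY 15. Its exons overlap those of Aimp2 on the other strand by 487 bases. Eif2ak3, the gene of the kinase PERK of the endoplasmic reticulum, had 0.91 (SE 1.93). Eif2ak4, the gene of the amino acid sensor GCN2, was above 0 in 5 libraries and was not tested.

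All 14 eIF3 subunit genes were tested, 8 with positive and 6 with negative fold changes and a median of 0.53. eIF3 is the largest initiation factor and keeps the small ribosomal subunit from rejoining the large one too early. Their summed level was 4012 ± 782 normalised reads in control and 4122 ± 879 in LOY libraries (SD, n = 6 each). Per kb, Eif3h was the highest with 226 ± 101 and 293 ± 126, and Eif3g (180.2 ± 96.0 and 216 ± 71.0) and Eif3k (150.0 ± 14.7 and 170.2 ± 116) came next, within each other's spread. The lowest was Eif3j2 (3.78 ± 3.82 and 7.99 ± 4.56), which was below its paralog Eif3j1 in all 12 libraries. Exons of Eif3j1 overlap those of Spg11 by 1107 bases and exons of Eif3d those of Gm17638 by 2151 bases, both on the other strand. Although the subunits act in 1 complex, only 6 of the 14 genes (Eif3a, Eif3c, Eif3g, Eif3h, Eif3j1 and Eif3k) reached 10 normalised reads in every library. Eif3k varied least among the controls (341 to 442 normalised reads) and ran from 195 to 1064 in LOY libraries. Eif3f had the smallest unadjusted limma p of the complex (0.157), with 151, 276 and 600.3 normalised reads (lowest, median, highest) in control and 3.96, 159 and 593 in LOY libraries. LOY 5 and LOY 15 were under 14 normalised reads and LOY 4 was near the highest control, and the log2 fold change was -1.76 (SE 1.18, interval -4.29 to 0.76), or -0.94 without LOY 5. Eif3a, the gene of the largest subunit, had 198, 1097 and 1459.5 normalised reads in control and 169, 609.9 and 1089.9 in LOY libraries. All 6 LOY libraries lay below the control median and all but LOY 5 inside the control range, with a log2 fold change of -0.58 (SE 0.59, interval -1.86 to 0.69), which was -0.25 without LOY 5 and -0.99 without control 7.

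**Figure D5:**
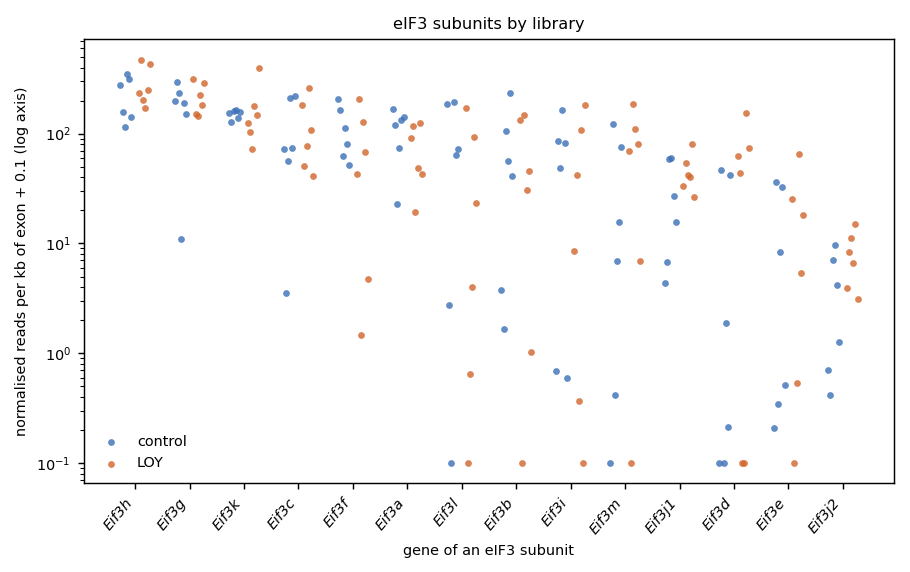
Normalised reads per kb of exon + 0.1 (log axis) of the 14 eIF3 subunit genes in order of their mean level, with 1 point per library (control blue, LOY orange). Points at 0.1 are libraries with no reads of that gene, which occur for Eif3l, Eif3b, Eif3i, Eif3m, Eif3d and Eif3e.

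Eif5a (ENSMUSG00000078812, chr11:69916714-69921958, reverse strand) differed little between libraries. Its lowest, median and highest values were 2501, 3598 and 4135 normalised reads in control and 2748, 3175 and 3973 in LOY libraries. The LOY libraries all lay inside the control range, and the log2 fold change was -0.07 with the smallest SE of the members (0.22, interval -0.53 to 0.39). Its paralog Eif5a2 had 258 normalised reads in LOY 15, 1.27 in control 8 and 0 in the other 10 libraries. Eif6, whose protein keeps the ribosomal subunits apart until they are mature, had 99.3, 617 and 893 normalised reads in control and 9.89, 293 and 845 in LOY libraries. LOY 5 alone lay below the control range, and the log2 fold change was -1.02 (SE 1.01, interval -3.18 to 1.15). It was -0.17 without LOY 5 and 0.05 when control 8 was left out too.

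On the elongation side, Eef1a1 and Eef2 had fold changes of opposite sign, and neither passed the test. Eef1a1 (ENSMUSG00000037742, chr9:78478449-78489151, reverse strand) had 1807, 3116 and 4779 normalised reads (lowest, median, highest) in control and 974, 2315 and 5357 in LOY libraries. LOY 10 was the highest and LOY 15 the lowest of all 12, and the log2 fold change was -0.45 (SE 0.41, interval -1.33 to 0.43), between -0.20 without LOY 15 and -0.69 without LOY 10. Eef2 (ENSMUSG00000034994, chr10:81176631-81182498, forward strand) had 1035, 1848 and 3137 normalised reads in control and 670.4, 2977 and 4263 in LOY libraries. Here 3 LOY libraries lay above all controls, LOY 15 below all controls, and the log2 fold change was 0.55 (SE 0.44, interval -0.40 to 1.50), or 0.92 without LOY 15. LOY 15 was thus the lowest library for both genes.

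Among the eEF1 subunits that recharge eEF1A, Eef1d had the highest log2 fold change of the 49 members. It had 1.45, 75.4 and 836 normalised reads (lowest, median, highest) in control and 181, 406 and 792 in LOY libraries. Controls 2 and 12 were under 7 normalised reads, control 6 was the highest of all 12, and the LOY libraries all lay inside the control range. The log2 fold change was 2.77 (SE 1.36, interval -0.15 to 5.69; unadjusted limma p 0.0611) and 0.89 by DESeq2. Eef1b2 and Eef1g had -0.33 (SE 0.87) and -1.14 (SE 0.82). Eef1e1, the gene of a tRNA synthetase complex protein, had 238 normalised reads in control 6 and at most 2.06 in any other library. Eef2k, the gene of the eEF2 kinase, had 0, 229 and 557 normalised reads in control and 19.7, 195 and 814 in LOY libraries, with LOY 10 the highest and control 12 at 0. The fold change of 1.40 on the log2 scale (SE 1.59) was 0.21 without control 12, 0.78 without control 8 and 0.35 by DESeq2. The methyltransferase gene Eef1akmt1 has an adjusted p of 0.135 and a log2 fold change of -5.52 in the authors' deposited table. Its reads came from control 6 (327 normalised reads) and control 11 (101), while the other 10 libraries held at most 8.87.

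Genes that act around these factors did not pass the test either. The lists cover termination and recycling factors, poly(A)-binding proteins with their Paip partners, the integrated stress response and mTOR control. They also cover hypusine and diphthamide synthesis, mitochondrial factors, selenocysteine decoding and aminoacyl-tRNA synthetases with their partners Aimp1 and Aimp2. Together they hold 81 genes, of which 72 are in the table and 47 were tested. None passed the limma test (0.0288% of all genes did), 21 had positive and 26 negative fold changes, and their median was -0.12. Among the targets and feedback genes of eIF2 phosphorylation, Atf4, the transcription factor whose translation rises under stress, had 1743 ± 476 normalised reads in control and 1836 ± 756 in LOY libraries, with a log2 fold change of -0.003 (SE 0.34). Ppp1r15a, the gene of the phosphatase subunit GADD34, had 11544 ± 5908 and 12498 ± 3328 normalised reads (log2 fold change 0.21, SE 0.31), and Ddit3, the gene of CHOP, had 2108 ± 585 and 2280 ± 634 (0.11, SE 0.28). Chac1 had the largest fold change of this response, with 343 ± 314 normalised reads in control and 743 ± 385 in LOY libraries. Its log2 fold change was 2.24 (SE 1.12; unadjusted limma p 0.0640, adjusted p 0.997). The 9 tested genes of this response had 5 positive and 4 negative fold changes, and the 10 of mTOR control had 5 of each. All 3 tested genes of the poly(A)-binding list (Pabpc1, Paip1 and Paip2) and 10 of the 15 of the synthetase list had negative ones. Dhps, the enzyme that starts the hypusine modification of eIF5A, had the smallest unadjusted limma p of the 47 (0.0142). It had 0.925, 16.4 and 69.3 normalised reads (lowest, median, highest) in control and 33.1, 307 and 803 in LOY libraries. The ranges overlapped between 33.1 and 69.3 normalised reads, with a log2 fold change of 3.73 (SE 1.34) and a limma adjusted p of 0.997. DESeq2 gave Dhps an adjusted p of 0.00916 at a log2 fold change of 3.95. It also called Paip2b (adjusted p 0.00849), which limma did not test and which was at 0 in 2 control and 3 LOY libraries. These were 2 of the 72 genes, beside 3.12% of all genes called by DESeq2.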

How the data were processed

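The 12 libraries were made with the SMART-Seq v4 kit and Nextera XT, per the labels' protocols. Neither marks strand or molecules, so PCR copies count as reads and antisense overlaps share reads. Tools named in the submitters' processing notes are STAR 2.5.2b, featureCounts (Subread 1.5.2), Trimmomatic 0.36 and bcl2fastq 2.17, and the builds are GRCm38 and mm10. The authors made the signal values of their single deposited table by dividing each gene's reads by a scaling factor of the library, per the values and the file headers. All values were whole multiples of the worth of 1 read (tolerance 0.01 of a read), from which the reads were recovered. The table's log2 fold changes, p-values and adjusted p-values are the authors' own, from a tool that no source used here names. For the members, its fold changes and unadjusted p-values match those of DESeq2 on the recovered reads. Library totals cover the 11911 listed genes only.

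The main test was limma 3.58.1 (trend, robust) on log2(normalised reads + 1) with genotype as the only term and all 12 libraries. It covered the 6951 genes that reached 10 normalised reads in 6 or more libraries, with Benjamini-Hochberg adjustment over all of them and a two-sided threshold of 0.05. Alternatives were DESeq2 1.42.0 and edgeR 4.0.16 (quasi-likelihood) on the recovered reads, quantile normalization, TMM factors, no filter, a mean of at least 50, pseudocounts of 0.5 and 5, array weights and each library left out. Leaving out both libraries of lowest array weight (control 8 and LOY 5) was chosen after seeing the data. Lengths are exon unions of GENCODE M21, which also gave the coordinates.

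The members and gene lists were chosen with earlier results of these data known. Within each of 14 roles the member of highest mean and the tested member of smallest p are named, with the 8 members of smallest p overall. Members named beyond that, and Atf4, Ppp1r15a, Ddit3, Chac1, Dhps and Paip2b, were chosen after their values were seen.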

Additional observations from a re-analysis of the deposited data

Results flagged for a closer look

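In 11 of the 82 groups of 6 libraries looked at (control and LOY for each value given by library), 1 library stood apart from the other 5, meaning that its gap to the nearest value was more than 0.625 of the whole range. This cut would flag about 1 in 20 groups by chance if the values were normally distributed. The values here are untransformed normalised reads, which are often skewed, and in some groups most libraries had no reads. The number of flagged groups therefore cannot be compared with that rate. Several of the genes below were named because of 1 library that stood apart.

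Among the eIF4 genes, Eif4b had 1638 normalised reads in control 2, where the next control had 365. Eif4enif1 had 806 in the same library, where the next control had 290.4. The helicase gene Eif4a1 had 1655 in control 11, where the next control had 1331. Eif3k, a subunit gene of eIF3, had 1064 in LOY 15, where the next LOY library had 485.

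The rest were genes read in few libraries. Eif2b3 had 248 normalised reads in control 7 (next control 31.5). Control 6 held 327 of Eef1akmt1 (next control 101) and 238 of Eef1e1 (next control 1.27). Eif5a2 had 258 in LOY 15 and 1.27 in control 8, each beside 5 libraries of its group at 0. LOY 10 stood apart in the sum of heart muscle markers (71722 normalised reads, next LOY library 17875) and in Ddx3y (51.6, next LOY library 1.05). Leaving LOY 10 out gave 0 members called and a median log2 fold change of 0.03.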

How the results depend on the processing

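No member passed the threshold in the main fit or in any of the 22 alternative fits, whose smallest adjusted p was 0.103 (DESeq2). The count of members with a positive fold change ran from 22 to 30. The median over members, 0.07 in the main fit, ran from -0.0800 to 0.36 when 1 library was left out, with 0.36 without LOY 15 and 0.35 without control 11. Without LOY 10, the library highest in heart muscle markers, it was 0.03. The number of genes called over the whole table, 2 in the main fit, was 303 in DESeq2 and 0 in edgeR (130 at an unadjusted p under 0.05), without a filter, at a mean of at least 50, and without control 8 and LOY 5 together, and 0 to 4 when 1 library was left out. DESeq2 called 2 of the 72 other genes of the pathway, beside 3.12% of all genes, and limma called 0 of 47. Counting members above 0 in place of at 10 normalised reads in all 12 libraries gave 34 in place of 22.

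Of 500 fold changes of the 23 named members over these fits, 481 kept the sign of the main fit, 19 reversed, in 6 genes, and 0 passed the threshold. Leaving out 1 library gave -1.50 to 0.37 for Eif2b2, -0.57 to 0.13 for Eif2s2, -0.15 to 0.18 for Eif4ebp1 and -0.49 to 1.30 for Eif4enif1, each crossing 0. Eif4ebp1 was also -0.0512 with TMM factors, -0.00319 with array weights and -0.0445 without control 8 and LOY 5, where Eif4enif1 was -0.74 and Eif6 0.0519. Eif5a was 0.00163 with quantile normalization. The causes were not tested. Among the members with an unadjusted p under 0.05 in the main fit, the fold change ran from 1.36 to 2.51 for Eif4e, from 1.43 to 2.31 for Eif5b and from -0.84 to -0.44 for Eif5.

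No paired analysis was possible because the control libraries (2, 6, 7, 8, 11 and 12) and the LOY libraries (3, 4, 5, 10, 14 and 15) share no number. Each library was made from 800 cells, and most members under 300 normalised reads were at or near 0 in some library of each group, so that changes of less than several-fold were not detectable in them.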
